A study of Mus musculus with 3 samples.

Results

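The genes Hal, Amdhd1, Hdc, Hnmt, Hrh1 and Hrh2 were followed through the cells of mouse dorsal skin with and without UVB irradiation. These 6 of the 32285 genes in the matrices were taken by symbol, because Hal was nearly absent from the macrophages of 1 library. The low Hal level of those macrophages is therefore a description and not a test. The data were 3 single-cell 3′ RNA libraries of skin digests enriched for CD45+ cells with magnetic beads, 1 from each group. WT_Ctrl was wild-type skin without UVB, WT_UV was wild-type skin after 3 UVB exposures, and RP_UV was skin of genotype RP after 3 UVB exposures. Animals in all groups were C57Bl/6 males aged 8 weeks with hair follicles in telogen. RP mice carried Rosa26-rtTA and Tre-Ptgs2, which drive Cox-2 from a doxycycline-induced transgene in all tissues rather than in 1 cell type, and the doxycycline given to each group was not stated in the labels. The number of animals behind a library was not stated in the labels either.

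Histidine and histamine are joined by a fork in amino acid metabolism. Hal, histidine ammonia-lyase, turns histidine into urocanic acid, the main ultraviolet absorber of the cornified layer of the epidermis, and Uroc1, Amdhd1 and Ftcd carry the product on towards glutamate. Hdc, histidine decarboxylase, makes histamine instead, which mast cells and basophils store and release, while Hnmt methylates and inactivates it. Histamine acts on vessels, nerves and leukocytes through receptors that include Hrh1 and Hrh2.

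The positions of the genes were read from RefSeq for GRCm38.p6, the build of the mm10 name in the labels. Hal (ENSMUSG00000020017) lay at chr10:93488768-93516761 on the forward strand. Amdhd1 (ENSMUSG00000015890) lay at chr10:93523338-93540111 on the reverse strand, so that the 3′ ends of the 2 genes were 6.6 kb apart. Hdc (ENSMUSG00000027360) lay at chr2:126593659-126624025, Hnmt (ENSMUSG00000026986) at chr2:24002911-24049758, Hrh1 (ENSMUSG00000053004) at chr6:114397936-114483298 and Hrh2 (ENSMUSG00000034987) at chr13:54191970-54236182. The promoters of Hal and Hdc are shown because those genes marked the 2 ends of the fork in different cells, and all 6 genes had a RefSeq promoter entry. Each run holds the 250 bases before and the 50 from the transcription start, and is printed in the direction of transcription. Capitals mark matches to the letters TGANTCA, written for AP-1, TTGCNNAA for C/EBP and TATAA for the TATA box, while GAGGAA for ETS factors and AGATAA for GATA factors were searched too, all on both strands.
Hal, chr10:93488518-93488817, forward strand: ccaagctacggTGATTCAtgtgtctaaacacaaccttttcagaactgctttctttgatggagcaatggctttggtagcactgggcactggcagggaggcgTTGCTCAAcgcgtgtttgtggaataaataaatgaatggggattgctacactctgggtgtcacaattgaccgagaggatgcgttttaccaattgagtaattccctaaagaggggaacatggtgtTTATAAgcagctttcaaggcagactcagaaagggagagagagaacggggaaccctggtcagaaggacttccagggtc
Hdc, chr2:126618629-126618928, reverse strand: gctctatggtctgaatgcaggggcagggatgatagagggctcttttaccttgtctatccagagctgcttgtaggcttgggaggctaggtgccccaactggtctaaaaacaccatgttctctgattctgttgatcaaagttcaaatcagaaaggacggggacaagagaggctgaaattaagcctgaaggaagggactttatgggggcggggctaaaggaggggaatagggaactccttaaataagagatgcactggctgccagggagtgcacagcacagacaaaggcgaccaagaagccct
The Hal window held the AP-1 letters, which were in 7.81% of 32851 promoters of the same length, the C/EBP letters (10.8%) and the TATA letters (24.9%), the last on both strands where 2 matches overlapped. The Hdc window, at a RefSeq start inside the span of the gene, held none of the 5 motifs, of which the ETS letters were in 28.3% and the GATA letters in 11.2% of promoters. No result here measured these windows, since the reads came from the 3′ ends of transcripts.

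The 3 libraries held 34985549, 82722013 and 37689836 UMIs in the order WT_Ctrl, WT_UV and RP_UV, and 5309, 5225 and 6070 cells passed the filters of the study. WT_UV was the deepest, with a median of 10557 UMIs per cell against 4246 in WT_Ctrl and 3774 in RP_UV. The sample identifiers in the labels place WT_Ctrl and RP_UV on 1 flow cell and WT_UV on another, so that flow cell and group cannot be told apart in any comparison with WT_UV. Between 8 and 11 cell barcodes were shared by each pair of libraries. Levels are the UMIs of a gene per 1000000 UMIs of a cell class in a library (CPM), with exact Poisson 95% intervals, and ratios carry exact conditional binomial 95% intervals, both covering counting error only. There was no replicate of any group, so no test was made. Ptgs2, the gene of the transgene, stood at 14.4 CPM in WT_Ctrl, 117 in WT_UV and 486 in RP_UV over all kept cells, but the transgene is the rat gene by the study's methods, and how its reads were assigned to mouse Ptgs2 was not stated. Cell classes were rebuilt from marker genes without the genes of histidine and histamine metabolism, and every name stands for X-like. Of 22 macrophage clusters, 21 had all 12 macrophage markers in at least 10% of their cells and 1 had 9. Between 15.1% and 24.7% of the cells of a library stayed unnamed.

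Hal was a highly expressed macrophage gene in 2 of the 3 libraries. It gave 9379 UMIs in 1909 macrophages of WT_Ctrl, or 1252 CPM (interval 1226 to 1277), and 11212 UMIs in 2116 macrophages of RP_UV, or 1072 CPM (1052 to 1092). The 1973 macrophages of WT_UV gave 37 UMIs, or 1.63 CPM (1.15 to 2.25), from the largest number of UMIs of the 3 libraries, 22687522. The WT_UV level was 0.0013 times that of WT_Ctrl (0.000917 to 0.0018), and RP_UV exceeded WT_UV 657-fold (477 to 934). RP_UV and WT_Ctrl, the pair on 1 flow cell, differed by a ratio of 0.856 (0.833 to 0.88). The pan-macrophage gene C1qa, a complement subunit, stood in the same cells at 4765, 3898 and 6287 CPM in the order WT_Ctrl, WT_UV and RP_UV, so that 26.3, 0.0418 and 17.1 Hal UMIs were counted per 100 C1qa UMIs.

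**Figure D1:**
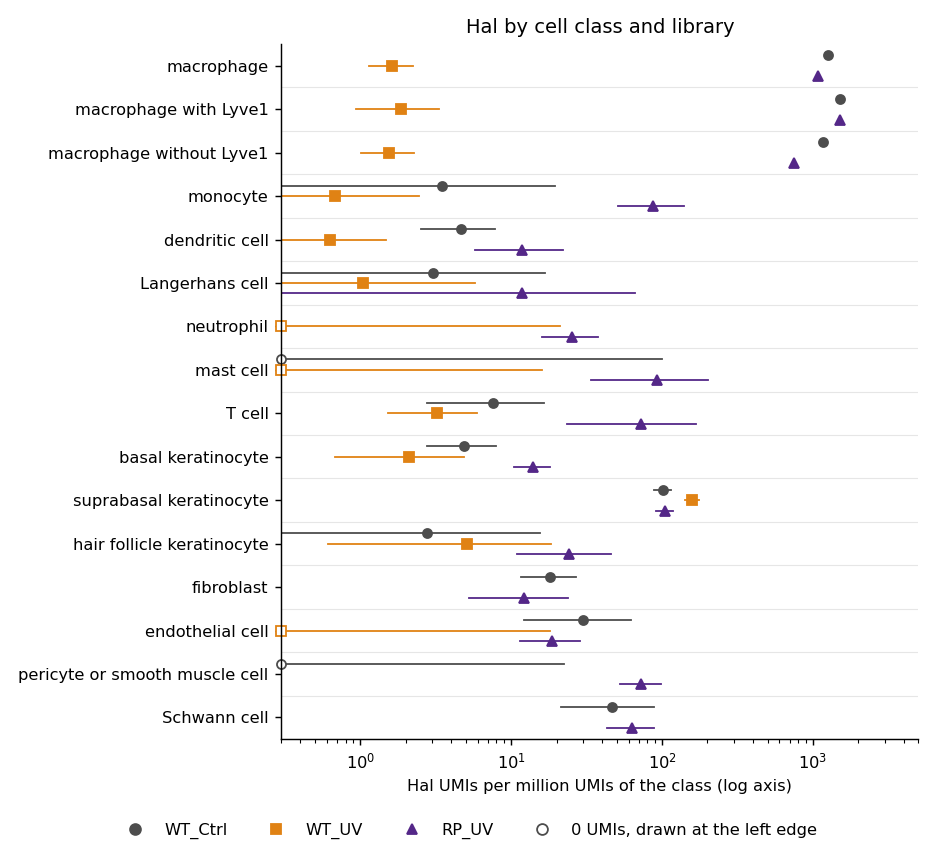
Hal level in CPM in each cell class with at least 20 cells, on a log axis with 0 UMIs drawn open at the left edge, for WT_Ctrl (circles), WT_UV (squares) and RP_UV (triangles), with exact Poisson 95% intervals for counting error. WT_UV sits at 1.63 in macrophages, where the other libraries sit at 1252 and 1072, and is level with or above them in suprabasal keratinocytes.

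The gap held cell by cell and at equal depth. With every macrophage thinned to 2000 UMIs, 79.6% of 1609 cells in WT_Ctrl had a Hal UMI (exact binomial interval 77.6 to 81.6), 70.5% of 1875 cells in RP_UV (68.4 to 72.6) and 0.532% of 1881 cells in WT_UV (0.255 to 0.976). Thinning left out 300, 241 and 92 shallower macrophages of WT_Ctrl, RP_UV and WT_UV, and without it the shares were 86.1%, 77.2% and 1.62%. T cells, which served as cells that should lack Hal, had a Hal UMI in 0.976% of 205 thinned cells in WT_Ctrl and 0.218% of 459 in WT_UV, at median depths of 2336 and 5193 UMIs before thinning against 3809 and 10688 in macrophages. The WT_UV share of macrophages lay inside the interval of its T cells (0.00552 to 1.21), which rests on 1 T cell with a UMI. In RP_UV 9 T cells were deep enough, of which 1 had a Hal UMI. The highest thinned macrophage held 12 Hal UMIs in WT_Ctrl, 15 in RP_UV and 1 in WT_UV, and cells with 3 or 4 UMIs made up 26.2%, 20.7% and 0% of macrophages in that order.

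**Figure D2:**
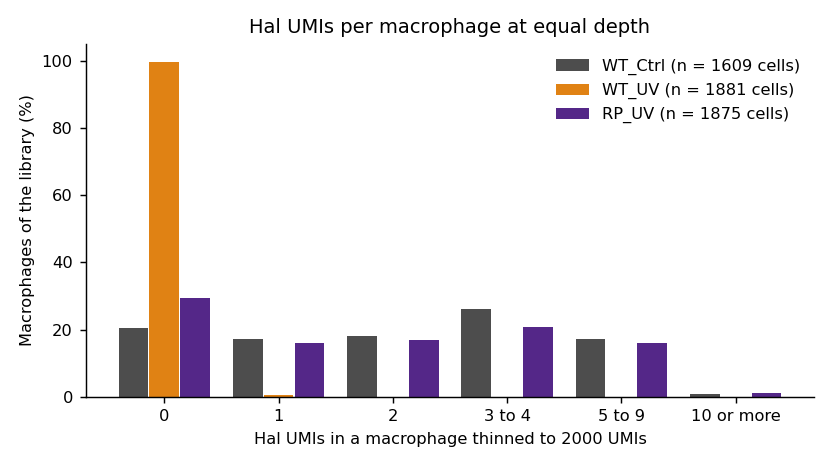
Share of macrophages of each library, in percent, by the number of Hal UMIs in a cell thinned to 2000 UMIs. The bars of WT_UV stand at 99.5% for 0 UMIs and 0.532% for 1 UMI, while WT_Ctrl and RP_UV spread up to 12 and 15 UMIs.

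Keratin 10 (Krt10) transcripts, made by suprabasal keratinocytes, were present at a low level in the WT_UV macrophages. They held 1625 Krt10 UMIs, or 22.8 Hal UMIs per 1000 Krt10 UMIs, where the suprabasal keratinocytes of the same library held 12.4 Hal UMIs per 1000 Krt10 UMIs. The keratinocytes of WT_UV outside the cell filters held 16.4. The part of keratinocyte RNA in the 37 macrophage UMIs was not tested.

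Every macrophage cluster of WT_UV was low. Clusters with at least 20 cells ranged from 0 to 2.95 CPM of Hal in WT_UV (16 clusters, median 1.02), from 200 to 1763 in WT_Ctrl (10 clusters, median 1439) and from 214 to 1714 in RP_UV (11 clusters, median 799). The macrophages of the libraries fell largely into different clusters, as in the largest RP_UV cluster of 718 cells, which had under 20 cells in each other library. In the 10 clusters with at least 20 cells in both WT_Ctrl and WT_UV, Hal was lower in WT_UV in 10, at 0 to 2.37 CPM against 200 to 1763. In the 7 clusters that RP_UV shared with WT_UV it was higher in RP_UV in 7. RP_UV and WT_Ctrl shared 3 clusters, with Hal higher in RP_UV in 1 and lower in 2, between 407 and 1294 CPM in RP_UV and between 200 and 1364 in WT_Ctrl.

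**Figure D3:**
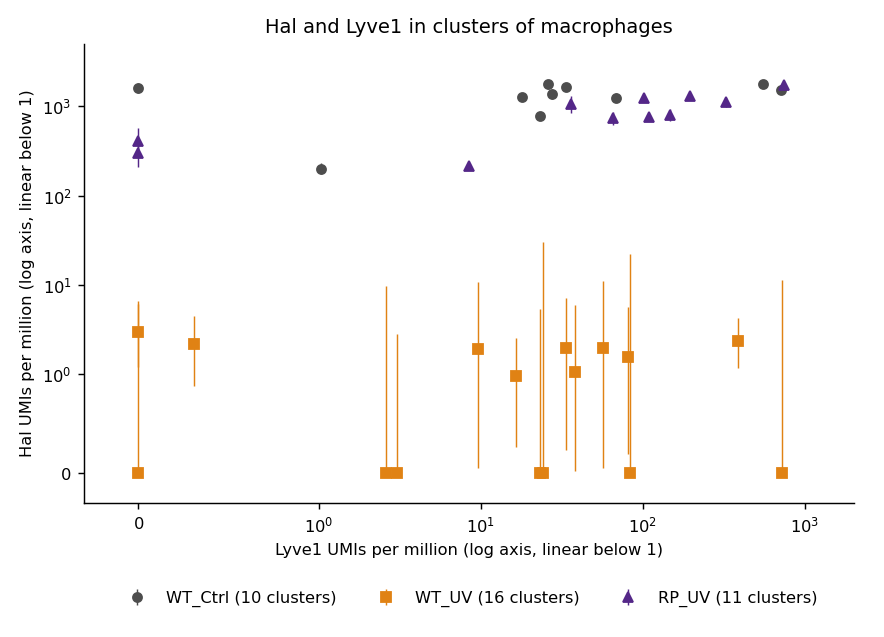
Hal against Lyve1 in clusters of macrophages, both in CPM on log axes that are linear below 1, each point being the cells of 1 library in 1 cluster of at least 20 cells, with exact Poisson 95% intervals for Hal. The 16 points of WT_UV lie at or under 2.95 at every Lyve1 level, and the points of the other libraries lie at or above 200.

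Within WT_Ctrl and RP_UV, Hal varied with the kind of macrophage. Lyve1 is a hyaluronan receptor that marks perivascular resident macrophages. Macrophages with a Lyve1 UMI stood at 1509 CPM of Hal in WT_Ctrl (492 cells) and 1521 in RP_UV (863 cells), a ratio between these libraries of 1.01 (0.965 to 1.05). Those without one stood at 1161 in WT_Ctrl (1417 cells) and 747 in RP_UV (1253 cells), a ratio of 0.643 (0.619 to 0.668). In WT_UV, 500 macrophages with Lyve1 held 11 Hal UMIs (1.87 CPM) and 1473 without it held 26 (1.55 CPM), with intervals that overlapped. Hal was thus 1.3 times (1.24 to 1.36) as high with Lyve1 as without in WT_Ctrl and 2.04 times (1.96 to 2.12) in RP_UV.

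Other genes of resident macrophages ran in the same direction in WT_Ctrl and RP_UV. With a UMI of Folr2, the folate receptor of tissue macrophages, Hal was 2.46 times as high in WT_Ctrl and 1.83 times in RP_UV. For the chemokine Ccl8 the ratios were 3.25 and 2.65, and for the haptoglobin-haemoglobin receptor Cd163 they were 1.71 and 1.39. Ccr2, the chemokine receptor of incoming monocyte-derived cells, ran the opposite way, at 0.47 in WT_Ctrl and 0.33 in RP_UV. The mannose receptor Mrc1 was detected in 97.7% and 97.6% of macrophages, with ratios of 5.63 (3.71 to 8.98) and 1.21 (0.953 to 1.56), and cells without it were shallow, at medians of 1623 and 860 UMIs. For Retnla, a secreted protein of alternatively activated macrophages, the ratio was 0.932 in WT_Ctrl and 1.41 in RP_UV. For H2-Aa, a chain of MHC class II, it was 0.727 (0.662 to 0.801) and 1 (0.966 to 1.04), and 94.3% of WT_Ctrl but 38% of RP_UV macrophages had a UMI of it. In WT_UV, the macrophages with a UMI of each of these markers, Lyve1 included, held between 9 and 37 Hal UMIs, and the ratios for Ccl8 (0.313, 0.135 to 0.845) and Cd163 (0.381, 0.189 to 0.768) ran the other way.

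The rank of Hal among macrophage genes is again a description, since it was chosen for this pattern. Of 1249 genes at 100 CPM or more in both WT_Ctrl and RP_UV, Hal had the lowest WT_UV level relative to the lower of the 2, at a ratio of 0.00152. The next was Ly6a, a surface antigen, at 180, 84.5 and 187 CPM in the order WT_Ctrl, WT_UV and RP_UV, a ratio of 0.469. Lyve1 followed at 204, 106 and 287 CPM (ratio 0.52), then the chaperone-complex gene Sdf2l1 (0.564) and the antiviral membrane protein Ifitm3 (0.57). Of 1522 genes at 100 CPM or more in WT_UV, those among the highest there relative to both others included the chemokine receptor Cxcr4 (34.6, 111 and 28.2 CPM, ratio 3.2). The kinase Pim1 (2.52), Smim4 (2.49) and the antiproliferative gene Btg1 (2.17) came after it. Ly6a and Ifitm3 belong to families of similar genes, and the part of shared reads in their counts was not tested.

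Apart from Amdhd1, the genes beside Hal on chromosome 10 whose counts allowed a comparison had ratios of WT_UV to WT_Ctrl between 0.841 and 1.57. Lta4h, a leukotriene hydrolase gene that ends 3.9 kb before Hal, had macrophage levels of 44.7, 37.6 and 42.9 CPM in WT_Ctrl, WT_UV and RP_UV, and was lower in WT_UV than in WT_Ctrl (ratio 0.841, 0.74 to 0.957). The transcription factor gene Elk3 stood at 60.5, 65 and 68.7, the kinase gene Cdk17 at 11.6, 12.3 and 12.5, and Gm17745 at 8.41, 9.65 and 5.74, lower in RP_UV than in WT_Ctrl (ratio 0.682, 0.471 to 0.988). Beyond Amdhd1, the splicing factor gene Snrpf stood at 123, 192 and 132 CPM. Ccdc38 had 1, 2 and 17 UMIs, and Gm32688, 4933408J17Rik and Ntn4 had at most 4 UMIs in a library.

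**Figure D4:**
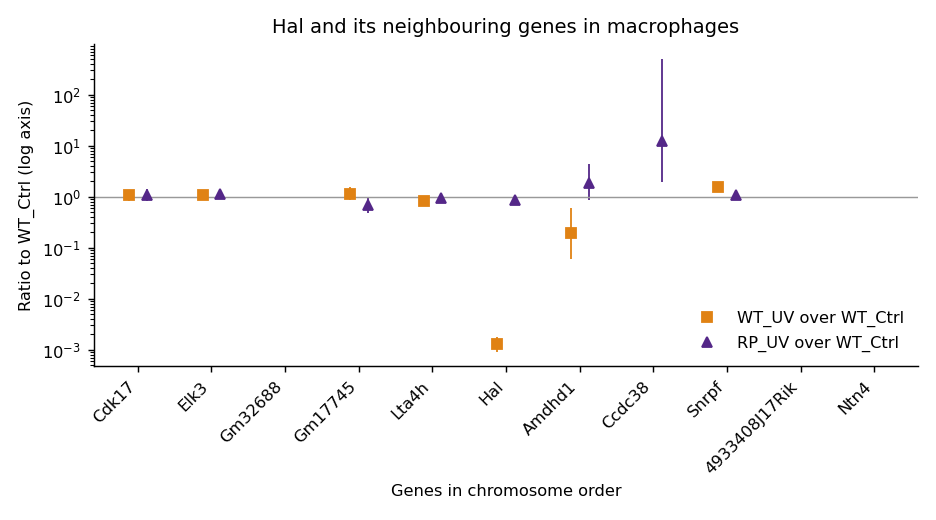
Ratio of the CPM in macrophages to WT_Ctrl, on a log axis, for Hal and the 5 measured genes on each side in chromosome order, with exact conditional binomial 95% intervals; squares are WT_UV, triangles RP_UV, and ratios over fewer than 10 UMIs are not drawn. Hal stands at 0.0013 in WT_UV, Amdhd1 at 0.198, and the other drawn squares between 0.841 and 1.57.

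Amdhd1, the imidazolonepropionase of the same breakdown route, was near the detection limit. Its macrophage UMIs numbered 10 in WT_Ctrl, 6 in WT_UV and 26 in RP_UV, or 1.33, 0.264 and 2.49 CPM. The WT_UV level was 0.198 times that of WT_Ctrl (0.0592 to 0.602) and RP_UV was 9.4 times WT_UV (3.78 to 27.9), while RP_UV over WT_Ctrl had an interval that spanned 1 (0.869 to 4.33). After thinning to 2000 UMIs, 3, 0 and 11 macrophages of WT_Ctrl, WT_UV and RP_UV still had an Amdhd1 UMI. Dendritic cells held 11 UMIs in WT_Ctrl and 1 in each other library. Suprabasal keratinocytes held 4, 3 and 6. T cells held 0 UMIs in all libraries, which in the 3110672 UMIs of WT_UV T cells allows up to 0.964 CPM.

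Hal was detected in suprabasal keratinocytes of all 3 libraries. They held 264 UMIs in 375 cells of WT_Ctrl (101 CPM, 89.1 to 114), 379 in 247 cells of WT_UV (159 CPM, 143 to 176) and 253 in 328 cells of RP_UV (104 CPM, 91.8 to 118). WT_UV was 1.58 times WT_Ctrl (1.34 to 1.85) and RP_UV 1.03 times (0.866 to 1.23). Basal keratinocytes, the layer beneath, were at 4.88 CPM in WT_Ctrl, 2.1 in WT_UV and 13.9 in RP_UV, and thinned to equal depth a Hal UMI was found in 0.37%, 2.05% and 1.81% of basal cells and in 13.6%, 21.9% and 14.3% of suprabasal cells. Relative to Krt10, the suprabasal cells held 9.36, 12.4 and 13.5 Hal UMIs per 1000 Krt10 UMIs.

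The direction between WT_UV and WT_Ctrl in keratinocytes depended on which cells were kept and on how they were named. Over all keratinocytes the kept cells gave 44.9 CPM in WT_Ctrl and 74.8 in WT_UV, a ratio of 1.67 (1.42 to 1.95). The filters on genes and mitochondrial reads left out 217 keratinocyte barcodes of WT_Ctrl with 2218 Hal UMIs, 166 of WT_UV with 1592 and 329 of RP_UV with 390 Hal UMIs. Of these barcodes 166, 83 and 95 in the same order were above the upper limit on genes. With all deposited barcodes and classes from marker UMIs, WT_Ctrl stood at 178 CPM, WT_UV at 128 and RP_UV at 75, so that both irradiated libraries were below WT_Ctrl. With the same kept cells, the log2 ratio of WT_UV to WT_Ctrl was -0.37 with each library clustered on its own and -0.14 with every cluster given its best panel, against 0.74. The macrophage levels changed less, to 1231 in WT_Ctrl and 949 in RP_UV.

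In the other named classes Hal was below 100 CPM in every library. In WT_Ctrl, levels with intervals that overlapped one another were found in Schwann cells (46.8 CPM, 21.4 to 88.9), endothelial cells (30.1, 12.1 to 62) and fibroblasts (18.1, 11.6 to 26.9). In RP_UV the highest were mast cells (6 UMIs, 92.4 CPM), monocytes (17 UMIs, 87.1), pericytes or smooth muscle cells (41 UMIs, 73.1), T cells (5 UMIs, 72.5) and Schwann cells (33 UMIs, 62.9), again with overlapping intervals. These classes also held C1qa in RP_UV, with 12, 3.32, 22.9, 31.2 and 19.6 Hal UMIs per 100 C1qa UMIs in the same order, beside 17.1 in macrophages. In WT_Ctrl the ratio was 50 in Schwann cells, 58.3 in endothelial cells and 63.2 in fibroblasts, from 18, 12 and 38 C1qa UMIs, beside 26.3 in macrophages. The part of macrophage RNA in these levels was not tested. In WT_UV, monocytes, dendritic cells, Langerhans cells and T cells held 2, 5, 1 and 10 Hal UMIs, and neutrophils, mast cells and endothelial cells held 0. Unnamed cells had 116 CPM in WT_Ctrl, 2.88 in WT_UV and 322 in RP_UV.

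Hdc, the histamine-making enzyme, was highest in mast cells, neutrophils and basophils. Mast cells held 72 UMIs in 30 cells of WT_Ctrl (1939 CPM, 1517 to 2442), 672 in 93 cells of WT_UV (2932 CPM, 2715 to 3162) and 111 in 41 cells of RP_UV (1709 CPM, 1406 to 2059). WT_UV was 1.51 times WT_Ctrl (1.18 to 1.96), whereas RP_UV over WT_Ctrl, 0.882, had an interval that spanned 1 (0.65 to 1.2). The WT_UV and RP_UV intervals did not overlap, at a ratio of 0.583 (0.473 to 0.714) for RP_UV over WT_UV. Slc18a2, the vesicular transporter that loads histamine into granules, had mast cell levels of 862, 580 and 354 CPM in the same order of libraries, and Maob, an amine oxidase, at 215, 340 and 400 from 8, 78 and 26 UMIs. The median mast cell had 912 UMIs in WT_Ctrl and 1744 in WT_UV, so that 6, 36 and 8 cells of WT_Ctrl, WT_UV and RP_UV were deep enough to thin.

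Neutrophils had Hdc levels in the range of mast cells. They stood at 2908 CPM in WT_UV (55 cells, 2661 to 3171) and 1879 in RP_UV (560 cells, 1791 to 1970), a ratio of 0.646 (0.585 to 0.715) for RP_UV over WT_UV that turned to above 1 with other ways of naming cells. Of thinned neutrophils, 88.5% of 52 in WT_UV and 95.3% of 107 in RP_UV had an Hdc UMI, with 453 RP_UV neutrophils left out as too shallow, beside 0 of 459 T cells in WT_UV, which allows a share of up to 0.654%. Thinned to 1000 UMIs the neutrophil shares were 80% and 76.4%, and unthinned 89.1% and 83.2%, so no order is read from them. WT_Ctrl had 11 neutrophils with 40 Hdc UMIs. Basophils, under 20 cells in each library, were all Hdc-positive. The 14 of WT_UV held 597 Hdc UMIs out of 74301 and the 5 of RP_UV held 42 out of 9822. Both were higher levels than in mast cells and neutrophils of the same library, from few cells.

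Hdc was also detected at a lower level in other classes. Monocytes held 6 UMIs in WT_Ctrl (21.1 CPM, 7.73 to 45.9), 27 in WT_UV (9.19, 6.05 to 13.4) and 1 in RP_UV (5.13), with overlapping intervals. Endothelial cells held 4 UMIs in WT_Ctrl (17.2 CPM), 13 in WT_UV (63.6) and 83 in RP_UV (77.3), with a ratio to WT_Ctrl of 3.7 (1.14 to 15.6) in WT_UV and 4.5 (1.69 to 16.9) in RP_UV. S100a8, a neutrophil gene, had 0, 0 and 164 UMIs in these endothelial cells. Macrophages held 0, 31 and 75 Hdc UMIs, so that against the limit of 3 counts in WT_Ctrl the level was at least 3.41-fold higher in WT_UV and at least 17.9-fold higher in RP_UV. S100a8 moved with it in the macrophages, at 1, 55 and 255 UMIs, and the ratio of Hdc to S100a8 was 564 per 1000 in WT_UV and 294 in RP_UV macrophages against 209 and 124 in neutrophils. The part of neutrophil RNA in the macrophage values was not tested.

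Hnmt, the cytosolic enzyme that inactivates histamine, was spread over macrophages, monocytes, Langerhans cells and neutrophils. In macrophages it stood at 16.4 CPM in WT_Ctrl (123 UMIs, 13.6 to 19.6), 20.4 in WT_UV (463 UMIs, 18.6 to 22.4) and 20.6 in RP_UV (215 UMIs, 17.9 to 23.5). The ratios to WT_Ctrl were 1.24 (1.02 to 1.53) and 1.25 (0.999 to 1.58), and in thinned cells the shares with a UMI were 3.79%, 3.56% and 3.47%. A difference in macrophages was therefore not detectable at equal depth. Langerhans cells, at 27.3, 13.5 and 23.7 CPM from 9, 13 and 2 UMIs, had overlapping intervals. Neutrophils stood at 28.5 in WT_UV and 34 in RP_UV. Keratinocytes were lower in both irradiated libraries, at 6.72 CPM in WT_Ctrl, 3.68 in WT_UV and 2.44 in RP_UV, with ratios of 0.548 (0.301 to 0.964) and 0.364 (0.191 to 0.661). Basal cells showed the larger difference, with 26, 7 and 5 UMIs in WT_Ctrl, WT_UV and RP_UV. Mast cells held 0 Hnmt UMIs in all libraries, which in WT_UV allows up to 13.1 CPM.

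The receptor Hrh1, which couples to calcium signalling, was found chiefly in macrophages and was lower there in both irradiated libraries. Its level was 27.1 CPM in WT_Ctrl (203 UMIs, 23.5 to 31.1), 15.1 in WT_UV (342 UMIs, 13.5 to 16.8) and 11.6 in RP_UV (121 UMIs, 9.6 to 13.8), with no overlap of WT_Ctrl with either. The ratios to WT_Ctrl were 0.556 (0.466 to 0.665) and 0.427 (0.338 to 0.537). The same order held in macrophages with Lyve1, at 39.5, 27.3 and 16.4 CPM, and without it, at 22.7, 10.8 and 8.07. In thinned cells the shares with an Hrh1 UMI were 5.22%, 3.51% and 2.56%, against 0 of 205 T cells in WT_Ctrl. Dendritic cells stood at 5.63, 3.42 and 2.39 CPM with overlapping intervals. Endothelial cells held 0, 2 and 10 Hrh1 UMIs out of 232682, 204249 and 1073759 UMIs of the class. In RP_UV the endothelial level lay between those of dendritic cells and macrophages. Keratinocytes held 0, 0 and 1 Hrh1 UMIs.

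Hrh2, which couples to cyclic AMP, was a low-level leukocyte gene. Macrophages stood at 2.67 CPM in WT_Ctrl (20 UMIs), 4.72 in WT_UV (107 UMIs) and 1.24 in RP_UV (13 UMIs), so that WT_UV was 1.77 times WT_Ctrl (1.09 to 3.01) and RP_UV 0.466 times (0.213 to 0.984). At equal depth 0.746%, 1.06% and 0.32% of macrophages had a UMI, from 12, 20 and 6 cells and with overlapping intervals. Thinned to 1000 UMIs the macrophage shares were 0.109%, 0.466% and 0.197%, so no order is read from them. T cells stood at 12.7 and 11.6 CPM in WT_Ctrl and WT_UV, a ratio of 0.915 (0.445 to 2.07), and 41 T cells of RP_UV held 0 UMIs, which allows up to 43.5 CPM. Monocytes were at 14, 9.19 and 5.13 CPM from 4, 27 and 1 UMIs. Neutrophils were at 34.1 CPM in WT_UV and 13.2 in RP_UV with overlapping intervals. Dendritic cells of WT_UV held 30 UMIs (3.8 CPM) against 3 in WT_Ctrl (0.993 CPM). In RP_UV 2.08% of 144 dendritic cells had a UMI. The log2 ratio of RP_UV to WT_UV in dendritic cells ranged from -0.37 to 0.37 over 6 alternatives. Keratinocytes and mast cells held 0 Hrh2 UMIs in every library.

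**Figure D5:**
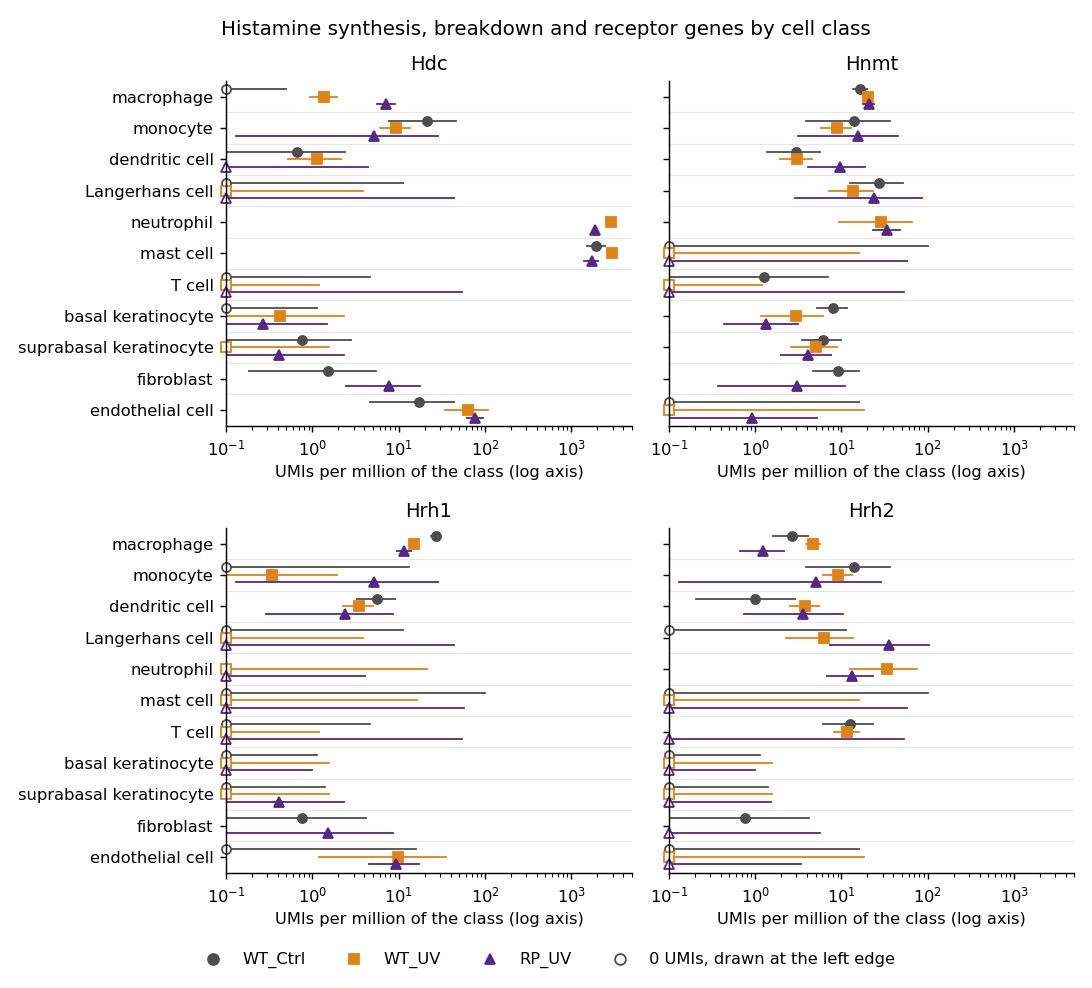
Level in CPM of Hdc, Hnmt, Hrh1 and Hrh2 in cell classes with at least 20 cells, on log axes with 0 UMIs drawn open at the left edge, for WT_Ctrl (circles), WT_UV (squares) and RP_UV (triangles), with exact Poisson 95% intervals for counting error. Hdc stands at 1709 or above in mast cells and neutrophils of every library drawn, Hnmt is spread over myeloid cells, and Hrh1 is highest in macrophages, in the order WT_Ctrl, WT_UV and RP_UV.

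The wider route was read from a list of 34 genes of histidine and histamine breakdown, synthesis, transport and signalling and of the epidermal proteins that supply histidine. A gene entered a count if the pair of libraries held at least 10 UMIs of it together, and was counted past a fold of 2 in either direction. In macrophages, WT_UV over WT_Ctrl, 22 of 34 genes entered. Of these 5 were higher, beside 7.84% of all 13378 genes, and 3 lower, beside 4.45%. The higher were Hdc, Slc15a3, Carns1, Cndp1 and Flg2, and the lower were Hal, Amdhd1 and Maob. The part of RNA from other cells in Hdc and Flg2 was not tested. The median log2 ratio was 0.17 for the list and 0.05 for all genes. RP_UV over WT_Ctrl had 2 of 20 higher, beside 8.32%, and 3 lower, beside 8.2%, with a median log2 ratio of 0.00 for the list and 0.02 for all genes. RP_UV over WT_UV had 4 of 23 higher, beside 5.52%, and 3 lower, beside 8.99%, with medians of 0.19 and -0.05. The 6 followed genes made up 1 of the 5 higher and 2 of the 3 lower in WT_UV over WT_Ctrl. In RP_UV over WT_UV they made up 3 of the 4 higher and 1 of the 3 lower. Hal was chosen for its low level in WT_UV macrophages, so its place in both comparisons was fixed beforehand.

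Outside the followed genes, transport genes were among those past a fold of 2 in macrophages. Slc15a3, a lysosomal carrier of histidine and peptides, stood at 33.1 CPM in WT_Ctrl macrophages, 75.1 in WT_UV and 27.1 in RP_UV, so that WT_UV was 2.27 times WT_Ctrl (1.99 to 2.6). Slc7a5, a plasma membrane carrier of large neutral amino acids, rested on 11, 56 and 44 UMIs, and RP_UV was 2.87 times WT_Ctrl (1.46 to 6.15). The carnosine dipeptidase Cndp1 had 4, 50 and 11 UMIs, and Maob had 9, 5 and 5. Aldh2, which oxidizes the aldehyde left by amine oxidases, was at 319, 284 and 338 CPM, and Maoa at 60.1, 47.5 and 40.4. The breakdown genes Uroc1 and Ftcd and the receptor Hrh3 had 0 UMIs in the kept cells of every library, and Hrh4 had 1, 10 and 2.

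In keratinocytes, 5 of 18 genes were higher in WT_UV over WT_Ctrl, beside 5.83% of 12362, and 0 lower, beside 6.08%. RP_UV over WT_Ctrl had 5 of 19 higher, beside 11.6%, and 2 lower, beside 12.3%. RP_UV over WT_UV had 2 of 19 higher, beside 8.63%, and 2 lower, beside 6.84%. The list medians in these 3 comparisons were 0.32, 0.32 and -0.02 on the log2 scale, beside -0.14, -0.07 and 0.08 for all genes. The 5 higher in WT_UV over WT_Ctrl were Slc15a3, Slc7a5, Flg, Hrnr and Casp14. Hars, which charges histidine onto its transfer RNA, was at 26.1 CPM in WT_Ctrl, 42.7 in WT_UV and 66.6 in RP_UV, and Slc7a5 at 2.08, 4.27 and 16.9. In cells thinned to equal depth Slc7a5 was at 1.63 CPM in WT_Ctrl and 1.46 in WT_UV, so its direction between them turned. Profilaggrin (Flg), the histidine-rich precursor from which the cornified layer draws its free histidine, had 1, 47 and 679 UMIs, and its relative Hrnr had 11, 121 and 109. Of the 41 Hrnr UMIs in kept WT_Ctrl cells 28 were in unnamed clusters, and with all deposited barcodes Hrnr was at 22.9 CPM in WT_Ctrl and 20.3 in RP_UV. Of the 85 Flg UMIs in kept WT_Ctrl cells, 83 lay in unnamed clusters, and with classes from marker UMIs Flg was lower in WT_UV than in WT_Ctrl (7.37 against 10.9 CPM). The protease Casp14, which helps break profilaggrin down, was at 16.2, 38.8 and 31 CPM. Flg2 was at 11.5, 17.8 and 3.21 CPM, and its WT_UV to WT_Ctrl direction turned under 3 of the alternatives.

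The genes whose levels ran most like those of the members were looked for across 40 points, each a cell class in 1 library, among 14679 genes. Points of a library share its depth and those of a class its cells, so the correlations are descriptions. For Hal the highest Pearson correlations were with Npl, a sialic acid lyase gene (0.62), Lamtor1 (0.60), Prxl2b (0.60), Bag1 (0.59) and Snx6 (0.57). In WT_UV macrophages these genes stood at 143 to 456 CPM, so none of them shared the low Hal level there. For Hdc the closest were Rab44 (0.85), Clec1b (0.84) and Gm14010 (0.83). For Hrh2 they were Cd101 (0.89), Cass4 (0.80) and Apobr (0.79), for Hrh1 Fcgrt (0.78), Chst7 (0.73) and Rilp (0.71), and for Hnmt Tnfsf13b (0.76), Pfkfb4 (0.71) and Card9 (0.70). For Amdhd1, 9630028I04Rik (0.64) and Gsg1 (0.61) were among the closest. Among the members themselves the highest correlation was 0.52, between Hnmt and Hrh2, and Hal correlated with Amdhd1 at 0.43.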

How the data were processed

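The values deposited by the authors were unnormalized UMI counts of called cells, from Cell Ranger 6.1.1, named in the file headers, and mm10, named in the labels. Following the methods of the study, a cell was kept if mitochondrial reads made up less than 10% and if its detected genes numbered above 200 and below 4000, the latter 6000 in WT_UV. Libraries were integrated with SCTransform (sctransform 0.4.2, Seurat 5.3.0, R 4.3.3; 3000 features without the 34 pathway genes, 30 dimensions, resolution 0.8). Clusters were split again with Leiden clustering (scanpy 1.11.5, leidenalg 0.10.2, resolution 0.5) into 133, of which 39 stayed unnamed. Names came from 24 marker panels, and the limits on scores were set after the clusters had been seen. Members, panels and lists were chosen with earlier results of these data known. Doublets were not removed: Scrublet marked 1.39%, 0.0191% and 0.0165% of cells in WT_Ctrl, WT_UV and RP_UV and did not work in the last 2.

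UMIs were summed per class and library. Each group was 1 library, so nothing was tested. A count of 0 was given the limit of 3 UMIs. Genes named beyond the members were the pathway list, the 5 extreme macrophage genes in each direction at 100 CPM or more, the 5 neighbours of Hal on each side, 8 macrophage markers, and the genes most correlated on log2(CPM + 1) at 10 CPM or more in some class. Some genes that this rule names are not reported here. List medians added 0.5 UMIs. Ratios were tested on simulated counts, while thinning was checked, on WT_UV cells, only for leaving 2000 UMIs in each. Alternatives were an upper limit of 4000 genes, all barcodes, classes from marker UMIs, separate clustering, the best panel for every cluster, means over cells, thinning to 2000 UMIs and leaving out the 5% highest Scrublet scores.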

Additional observations from a re-analysis of the deposited data

Results flagged for a closer look

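Some genes differed between libraries in opposite directions in different cell classes, with counting intervals on either side of 1. With 1 library per group none of these differences was tested. For Hal in WT_UV over WT_Ctrl, keratinocytes (log2 ratio 0.74) and macrophages (-9.58) stood 10.32 apart on the log2 scale, and the keratinocyte direction turned under other cell selections. For Hal in RP_UV over WT_UV, macrophages (9.36) and keratinocytes (-0.64) stood 10.00 apart, and the keratinocyte value turned to 0.17 and 0.12 under other ways of naming cells. For Hal in RP_UV over WT_Ctrl, T cells (3.26, from 5 and 6 UMIs) and macrophages (-0.22) stood 3.48 apart. For Hdc in RP_UV over WT_UV, macrophages (2.39) and mast cells (-0.78) stood 3.17 apart. For Hnmt in RP_UV over WT_Ctrl, dendritic cells (1.68, from 8 and 9 UMIs) and keratinocytes (-1.46) stood 3.14 apart, and in WT_UV over WT_Ctrl macrophages (0.31) and keratinocytes (-0.87) stood 1.18 apart, with the macrophage value at -0.01 in cells thinned to equal depth.

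Cells that the filters left out held a strong Hal signal. Keratinocyte barcodes outside the filters, named from marker UMIs, stood at 306 CPM of Hal in WT_Ctrl, 174 in WT_UV and 103 in RP_UV. Kept keratinocytes named in the same way stood at 57.1, 63.8 and 59.9 CPM, and those named from clusters at 44.9, 74.8 and 47.9. Macrophage barcodes outside the filters repeated the pattern of the kept macrophages, at 868, 3.11 and 774 CPM.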

How the results depend on the processing

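Values are log2 ratios. No paired analysis was possible because each group was 1 library. Over 8 alternatives, Hal in macrophages ranged from -10.36 (each library clustered on its own) to -8.92 (cells thinned to 2000 UMIs) in WT_UV over WT_Ctrl, from 8.76 (thinned) to 9.73 in RP_UV over WT_UV, and from -0.84 to -0.16 in RP_UV over WT_Ctrl. That last value was -0.37 with all deposited barcodes, -0.37 with classes from marker UMIs, -0.84 with separate clustering, -0.29 with the best panel for every cluster, -0.18 as a mean over cells and -0.16 thinned.

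Hal in keratinocytes, WT_UV over WT_Ctrl (0.74), turned to -0.47 with all barcodes, -0.37 with separate clustering and -0.14 with the best panel, and moved to 0.16 with classes from marker UMIs, 1.07 as a mean over cells and 1.35 thinned. In RP_UV over WT_Ctrl (0.09) it was -1.24 with all barcodes and -0.20 with separate clustering. In RP_UV over WT_UV it turned to 0.17 with separate clustering and 0.12 with the best panel. Hal in dendritic cells, RP_UV over WT_Ctrl, turned to -0.06 with the best panel. Hnmt in macrophages went to -0.01 in WT_UV and -0.09 in RP_UV over WT_Ctrl when thinned. Hdc in mast cells was 1.08 as a mean over cells in WT_UV over WT_Ctrl. In RP_UV over WT_Ctrl (-0.18) it was 0.30 with all barcodes, 0.30 with classes from marker UMIs, 0.42 with separate clustering and 0.27 as a mean over cells. Hdc in neutrophils, RP_UV over WT_UV, turned to 0.14 with separate clustering and 1.58 with the best panel.

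Of the pathway genes, with separate clustering Aldh2 in macrophages turned to -0.28 in RP_UV over WT_Ctrl and -0.14 in RP_UV over WT_UV, and Slc15a3 to 0.54 in RP_UV over WT_Ctrl. Thinned, Hars in macrophages turned to -0.04 in RP_UV over WT_UV and Maob in keratinocytes to 0.11 in WT_UV over WT_Ctrl. In keratinocytes, WT_UV over WT_Ctrl, Flg turned to -0.56 with classes from marker UMIs, -0.93 with separate clustering and -0.58 with the best panel, and Flg2 to -0.62 with the limit of 4000 genes, -0.26 with all barcodes and -0.09 with separate clustering. Hrnr turned to -0.18 with all barcodes in RP_UV over WT_Ctrl, and to 1.37 with the limit of 4000 genes and 0.11 with separate clustering in RP_UV over WT_UV. The cause of these changes was not tested.

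With at least 50 UMIs instead of 10, the macrophage genes past a fold of 2 were 498 higher and 198 lower (WT_UV over WT_Ctrl), 581 and 537 (RP_UV over WT_Ctrl), and 283 and 647 (RP_UV over WT_UV). In keratinocytes they were 306 and 309, 847 and 957, and 525 and 391 in the same order. The higher minimum left fewer genes by construction. Of 1217 alternative values, 48 for the main results moved less than the counting interval, or under 1.5 times for counts of genes, while 32 moved more and 4 turned. For the other results these numbers were 971, 143 and 19. A value counted as turned only where the interval of the main value excluded a ratio of 1. Changes of sign elsewhere were counted by size alone, as for Hdc in mast cells in RP_UV over WT_Ctrl. Counts limit Amdhd1, Hrh2 and every class under 100 cells, and 1 library per group limits all of it.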
